A study of Arabidopsis thaliana with 10 samples.

Results

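The 6 lipoxygenase genes of Arabidopsis thaliana, LOX1 to LOX6, were followed in roots of the mcu123 mutant and of the wild type. They were chosen by their locus codes, and all 6 were found among the 27826 rows of the expression table, each row standing for 1 locus. RNA came from 20-day-old roots on 10 Affymetrix arrays, 5 of mcu123, which the labels call an MCU triple knockout, and 5 of Col-0, the wild type. MCU proteins form the pore of the mitochondrial calcium uniporter. Both genotypes grew untreated in sterile hydroponics under long days with sucrose in the medium, and each replicate was RNA from pooled roots cut from the shoot. The labels name neither the alleles nor separate growth batches, so the p-values below reflect the spread among these RNA pools, which may be technical.

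Lipoxygenases add oxygen to polyunsaturated fatty acids and so start the synthesis of oxylipins. The 13-lipoxygenases LOX2, LOX3, LOX4 and LOX6 oxygenate linolenic acid at carbon 13 in plastids, the first committed step towards jasmonate, the hormone of wounding and defence. The 9-lipoxygenases LOX1 and LOX5 oxygenate at carbon 9 and feed other oxylipins, which are known to act in root development and defence. Several 13-lipoxygenase genes are themselves induced by wounding and by jasmonate.

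Values are log2 intensities on the scale of RMA, a method that equalises the arrays and summarises the probes of each gene, and differences are mcu123 minus Col-0. The median of every array was 4.30. Arrays correlated at 0.966 to 0.991 over all rows. The targeted genes MCU1 (AT1G09575) and MCU3 (AT2G23790) were lower in mcu123 by limma, with differences of -1.66 and -1.98 (adjusted p = 4.0e-04 each). MCU2 (AT1G57610) measured 2.77 ± 0.27 in mcu123 and 2.86 ± 0.29 in Col-0 (SD, n = 5 each), below the array median in both. Root markers were bright, with the Casparian strip gene CASP1 at 9.25 ± 0.21 in mcu123 and 9.47 ± 0.24 in Col-0. List means by array were 5.94 to 6.19 in mcu123 and 6.11 to 6.52 in Col-0 for 4 endodermis markers, 6.85 to 7.34 and 6.80 to 7.38 for 3 root hair markers, and 4.17 to 5.44 and 5.07 to 5.33 for 3 phloem markers. No marker of these lists, of 5 for xylem or of 9 for photosynthetic shoot passed the test. In 2 of them every mcu123 array lay below every Col-0 array, as in 1.02% of all rows. They were the endodermis gene CASP4 (difference -0.43, limma adjusted p = 0.30) and the phloem sucrose transporter gene SUC2 (-0.85, limma adjusted p = 0.61). For SUC2, mcu123 replicate 3 was lowest at 3.23. Their part in the lipoxygenase values was not tested. The array mcu123 replicate 3 had the lowest array weight, 0.39, where the others had 0.64 to 1.77.

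None of the 6 lipoxygenases passed the test between genotypes, with limma and Benjamini-Hochberg adjustment over all 27826 rows at a threshold of 0.05. Of all rows, 0.0431% passed. Of the 4 13-lipoxygenases, LOX3, LOX4 and LOX6 had lower means in mcu123, by 1.596-fold to 2.52-fold, and LOX2 was dim in both genotypes. Of the 2 9-lipoxygenases, LOX1 had the higher mean in mcu123 and LOX5 the lower one. In none of the 6 were the genotypes separated without overlap, whereas 1.02% of all rows lay lower in every mcu123 array and 0.683% lay higher. At an unadjusted limma p under 0.05, 3 of 6 were lower in mcu123, where 4.08% of all rows were. LOX3 and LOX4 were at least 2-fold lower in mcu123, as were 0.456% of all rows.

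**Figure D1:**
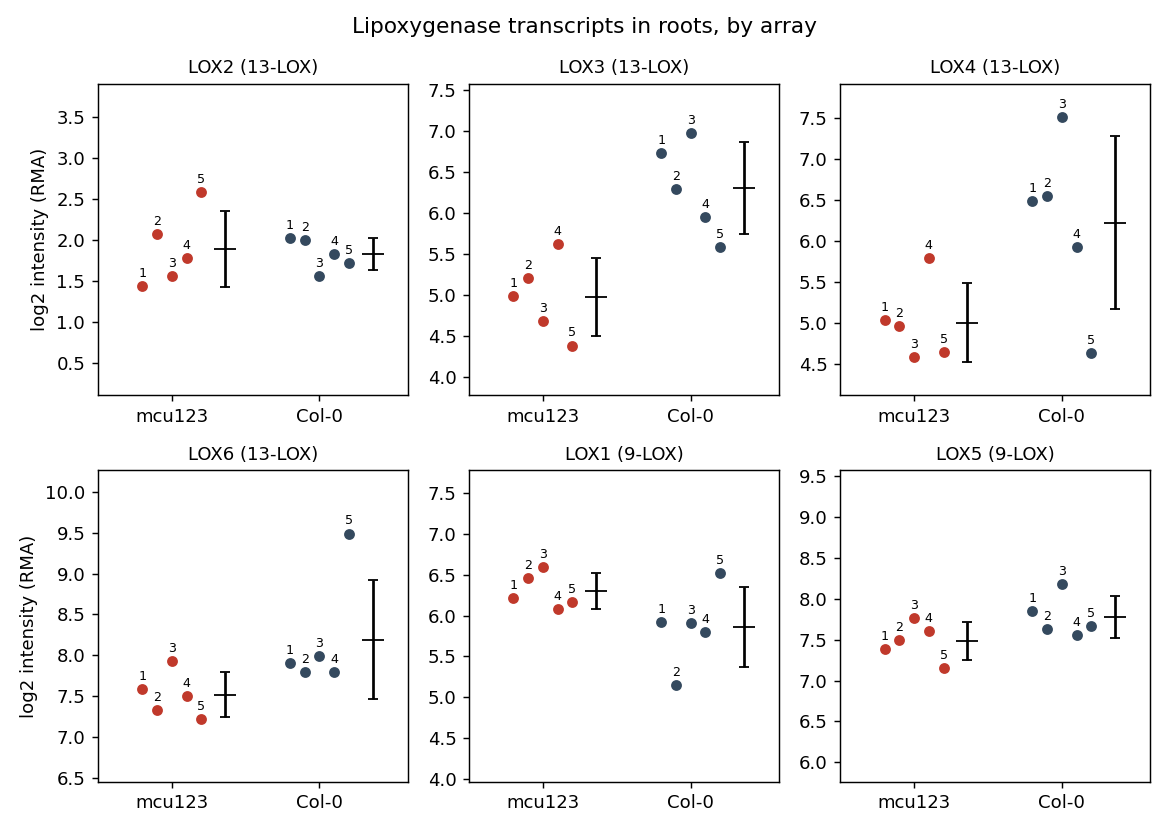
Log2 intensity (y axis, RMA scale) of each lipoxygenase in the 5 mcu123 arrays and the 5 Col-0 arrays. Points are arrays marked with their replicate number, bars are means with SD, and each panel spans the same range of log2 units. For LOX3, 4 mcu123 arrays lie under the lowest Col-0 array, replicate 5 at 5.59. For LOX4 only mcu123 replicate 3 lies under the lowest Col-0 array, replicate 5 at 4.64, and LOX6 has Col-0 replicate 5 apart at 9.49.

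Among the 13-lipoxygenases, LOX3 (AT1G17420), which acts with LOX4 in flower fertility and is induced by wounding, had the smallest p of the family. Its log2 intensities were 4.99, 5.21, 4.68, 5.62 and 4.38 in mcu123 replicates 1 to 5, against 6.73, 6.30, 6.98, 5.95 and 5.59 in Col-0 replicates 1 to 5. All mcu123 arrays but replicate 4 lay below every Col-0 array, and replicate 4 passed the lowest Col-0 array by a small margin. The means were 4.98 ± 0.48 in mcu123 and 6.31 ± 0.56 in Col-0 (SD, n = 5 each). The difference was -1.33 (SE 0.28, 95% interval -1.94 to -0.72), a level 2.52-fold lower in mcu123. Its limma p was 0.00044 unadjusted and 0.17 adjusted, which placed it 71st of all rows by p. Only 0.137% of rows had a more negative difference.

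LOX4 (AT1G72520) is the closest relative of LOX3. Its log2 intensities were 5.04, 4.96, 4.59, 5.79 and 4.65 in mcu123 replicates 1 to 5, against 6.49, 6.54, 7.52, 5.93 and 4.64 in Col-0 replicates 1 to 5. The Col-0 arrays spanned almost the whole range of the gene, since replicate 3 was the highest of all arrays and replicate 5 lay among the lowest mcu123 arrays. The means were 5.01 ± 0.48 in mcu123 and 6.22 ± 1.06 in Col-0 (SD, n = 5 each). The difference was -1.22 (SE 0.43, 95% interval -2.15 to -0.29), a level 2.33-fold lower in mcu123, with limma adjusted p = 0.51. With Col-0 replicate 5 left out the difference was -1.62 (limma adjusted p = 0.11), and with Col-0 replicate 3 left out it was -0.895 (limma adjusted p = 0.70).

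LOX6 (AT1G67560) is the 13-lipoxygenase known for wound-induced jasmonate in roots. Its log2 intensities were 7.59, 7.34, 7.94, 7.50 and 7.23 in mcu123 replicates 1 to 5, against 7.90, 7.80, 7.99, 7.79 and 9.49 in Col-0 replicates 1 to 5. The Col-0 arrays other than replicate 5 lay close together, and mcu123 replicate 3 reached into them while the other mcu123 arrays lay just under them. The means were 7.52 ± 0.27 in mcu123 and 8.19 ± 0.73 in Col-0 (SD, n = 5 each). The difference was -0.67 (SE 0.29, 95% interval -1.31 to -0.04), with limma adjusted p = 0.64. Col-0 replicate 5 carried much of that size, since the difference without it was -0.35 (limma adjusted p = 0.59). The 5 xylem markers had list means of 3.79 to 4.001 in mcu123 arrays and 3.68 to 4.22 in Col-0 arrays. Col-0 replicate 5 had 3.997. LOX6, with genotype means subtracted, correlated with the xylem mean at r = 0.10 and rho = 0.08. It had r = -0.61 and rho = -0.41 with the root hair mean, and r = -0.56 and rho = -0.67 with the photosynthetic shoot mean. Col-0 replicate 5 was the lowest of all arrays for the root hair mean (6.80) and the photosynthetic shoot mean (2.43). For endodermis (6.16) and phloem (5.20) that array lay within the range of the other Col-0 arrays. Whether tissue content had a part in the LOX6 value of that array was not tested.

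LOX2 (AT3G45140), the main 13-lipoxygenase of wounded leaves, had log2 intensities of 1.44, 2.08, 1.56, 1.79 and 2.59 in mcu123 replicates 1 to 5, against 2.02, 2.0, 1.56, 1.84 and 1.72 in Col-0 replicates 1 to 5. All 10 values lay well below the array median, and 21.1% of rows had a lower mean. With no detection calls among the values used here, a low level could not be separated from background. The genotypes overlapped almost fully, with a difference of 0.06 (95% interval -0.37 to 0.50). The highest value, in mcu123 replicate 5, stood in the array with the highest mean of 9 photosynthetic shoot markers, 3.62, where the other mcu123 arrays had 2.56 to 2.85 and the Col-0 arrays 2.43 to 3.09. Most of the 9 markers were highest in that array, among them RBCS1A at 7.98 and LHCB1.3 at 3.60. Not all were, since RCA at 4.43 lay below every Col-0 array and PSAF at 3.24 inside the range of the other mcu123 arrays. Whether shoot tissue had a part in the LOX2 value of that array was not tested. Without that array the LOX2 difference was -0.11.

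Of the 9-lipoxygenases, LOX1 (AT1G55020) had log2 intensities of 6.21, 6.46, 6.60, 6.08 and 6.17 in mcu123 replicates 1 to 5, against 5.92, 5.15, 5.91, 5.80 and 6.52 in Col-0 replicates 1 to 5. All mcu123 arrays lay above the mean of Col-0, but Col-0 replicate 5 was higher than most of them. The means were 6.30 ± 0.22 in mcu123 and 5.86 ± 0.49 in Col-0 (SD, n = 5 each), a difference of 0.44 (SE 0.21, 95% interval -0.02 to 0.90) with limma adjusted p = 0.69. It was 0.27 without Col-0 replicate 2, the lowest array, and 0.61 without Col-0 replicate 5 (limma adjusted p = 0.91 and 0.37).

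LOX5 (AT3G22400), known for a part in lateral root development, was the least variable member. It measured 7.39, 7.49, 7.77, 7.60 and 7.15 in mcu123 replicates 1 to 5, against 7.84, 7.63, 8.18, 7.55 and 7.67 in Col-0 replicates 1 to 5. The groups overlapped, with 3 mcu123 arrays under the lowest Col-0 array. The means were 7.48 ± 0.23 in mcu123 and 7.77 ± 0.25 in Col-0 (SD, n = 5 each). The difference was -0.29 (SE 0.15, 95% interval -0.62 to 0.03), with limma adjusted p = 0.73. It was -0.19 without Col-0 replicate 3, the highest array (limma adjusted p = 0.84).

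Set side by side, the 2 classes had different averages of these differences. The mean of the 4 13-lipoxygenases was 4.85 ± 0.20 in mcu123 arrays and 5.64 ± 0.28 in Col-0 arrays (SD, n = 5 each), a difference of -0.79. By array it was 4.69 to 5.18 in mcu123, below the 5.36 to 6.01 of Col-0. That separation rested on LOX6 in Col-0 replicate 5. The mean of LOX2, LOX3 and LOX4 alone, a measure added after seeing the data, had 3.61 to 4.40 in mcu123 arrays and 3.98 to 5.35 in Col-0 arrays, which overlap, with a difference of -0.83. The mean of the 2 9-lipoxygenases was 6.89 ± 0.20 in mcu123 arrays and 6.82 ± 0.29 in Col-0 arrays (SD, n = 5 each), a difference of 0.07 that averages the opposite signs of LOX1 and LOX5. It was -0.03 without Col-0 replicate 2, 0.0018 without mcu123 replicate 3 and 0.14 without Col-0 replicate 5, so its sign is not settled. The 13-lipoxygenase mean minus the 9-lipoxygenase mean ran from -2.49 to -1.66 in mcu123 arrays and from -1.73 to -0.73 in Col-0 arrays, so that Col-0 replicate 5 lay inside the mcu123 range. Levels of different genes cannot be compared on arrays, so only the shift of this gap between genotypes can be read. The class means are descriptions, and the difference between classes was not tested.

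The members also differed in how much they varied within a genotype. The residual SD of LOX4 was 0.82 log2 units, above that of 99.1% of rows. Those of LOX6 and LOX3 were 0.55 and 0.52, above 95.3% and 94.3% of rows. LOX1 and LOX2 followed at 0.38 and 0.35, above 82.4% and 78.6%, while LOX5 at 0.24 was near the middle, above 47.9%. The family members with the most negative differences were thus also those with the widest pooled spread between replicates. For LOX4 and LOX6 the SDs were larger in Col-0, at 1.06 and 0.73 against 0.48 and 0.27 in mcu123. For LOX6 this came from Col-0 replicate 5 at 9.49. The other Col-0 arrays had 7.79 to 7.99, a narrower range than the 7.23 to 7.94 of mcu123. LOX3 had SDs of 0.56 in Col-0 and 0.48 in mcu123.

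Array by array, LOX3 and LOX4 varied together. With each genotype's mean subtracted, their values correlated at r = 0.89 and rho = 0.88 over 10 arrays, and at r = 0.88 without Col-0 replicates 3 and 5, the arrays farthest from the median of LOX3. Of the 15 pairs of members it was the single one with both coefficients above 0.7. LOX3 and LOX5 had r = 0.65 and rho = 0.73, and r = 0.52 without Col-0 replicates 3 and 5. LOX1 and LOX6 had r = 0.76 and rho = 0.52, and r = 0.42 without Col-0 replicates 2 and 5. LOX4 and LOX6 ran in opposite directions at r = -0.69 and rho = -0.37, a relation that rested on Col-0 replicates 3 and 5, since r was -0.15 without them. All points share their array and its normalisation. The sources used here do not say how the probes of LOX3 and LOX4 were assigned, so signal shared by these related genes was not tested.

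Genes that respond quickly to touch and stress put the arrays in nearly the same order as LOX4. The mean of 10 such genes was 7.30, 6.995, 6.87, 7.40 and 6.75 in mcu123 replicates 1 to 5, against 7.68, 8.02, 8.40, 7.62 and 6.81 in Col-0 replicates 1 to 5. With genotype means subtracted, this mean correlated over 10 arrays with LOX4 at r = 0.96 and rho = 0.98, and with LOX3 at r = 0.82 and rho = 0.88. Without Col-0 replicates 3 and 5, the farthest from the median of both genes, r was 0.83 for LOX4 and 0.65 for LOX3. With LOX6 it had r = -0.66 and rho = -0.25, and the sign rested on Col-0 replicate 5 and mcu123 replicate 3, since r was 0.32 without them. With LOX1 it had r = -0.64 and rho = -0.53, and r = -0.22 without Col-0 replicates 2 and 5. With LOX5 it had r = 0.47 and rho = 0.50, and r = 0.34 without Col-0 replicate 3 and mcu123 replicate 3. Col-0 replicate 5, the wild-type array lowest for LOX3 and LOX4, was also the lowest for these genes. The list was chosen with earlier results of these data known and its genes share their arrays, so the next count only describes it. All 10 had lower means in mcu123, where 47.3% of all rows did. Their median difference was -0.58, where all rows had 0.01, and none passed the test. Those of smallest p were the zinc finger gene ZAT12 (-1.20), the transcription factor genes WRKY18 (-1.01) and ERF6 (-0.77), and the calmodulin gene TCH1 (-0.45). TCH1 lay below the array median in both genotypes, at 2.85 in mcu123 and 3.30 in Col-0. The part of harvest handling in the lipoxygenase values was not tested.

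**Figure D2:**
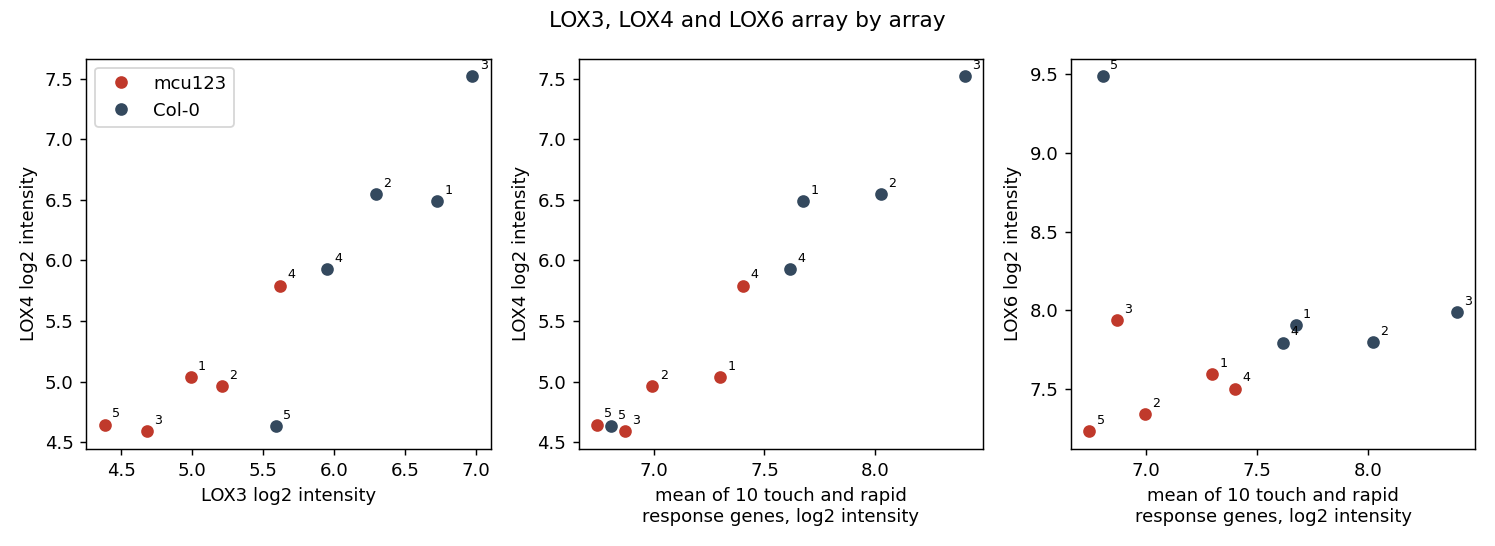
Log2 intensity of LOX4 against LOX3 (left), and of LOX4 (middle) and LOX6 (right) against the mean log2 intensity of 10 touch and rapid response genes. Each point is 1 array with its replicate number, mcu123 in red and Col-0 in dark blue. LOX4 of both genotypes lies along a common band, with Col-0 replicate 5 (4.64) beside mcu123 replicates 3 and 5 (4.59 and 4.65), whereas LOX6 of Col-0 replicate 5 stands apart at 9.49.

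Genes that respond to jasmonate varied with LOX3 and LOX4 as well. The mean of 11 such genes ran from 5.96 to 6.92 in mcu123 arrays and from 6.21 to 8.22 in Col-0 arrays, with Col-0 replicate 5 lowest of its group and Col-0 replicate 3 highest. With genotype means subtracted it correlated over 10 arrays with LOX4 at r = 0.93 and rho = 0.88, and with LOX3 at r = 0.84 and rho = 0.85. Without Col-0 replicates 3 and 5 these r values were 0.76 and 0.69. With LOX6 it had r = -0.60 and rho = -0.24, and r = 0.48 without Col-0 replicate 5 and mcu123 replicate 3. With LOX5 it had r = 0.49 and rho = 0.52, and r = 0.44 without Col-0 replicate 3 and mcu123 replicate 3. This list was also chosen with earlier results known and its genes share their arrays, so its count is a description. All 11 had lower means in mcu123, where 47.3% of all rows did. Their median difference was -0.99, where all rows had 0.01, and none passed the test. Those of smallest p were the JAZ repressor genes JAZ2 (-1.11), JAZ9 (-1.39) and JAZ6 (-1.03) and the transcription factor gene MYC2 (-0.87).

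Of the enzymes and carriers that take the product of 13-lipoxygenases on to jasmonate, 13 of 15 had lower means in mcu123, where 47.3% of all rows did. None of the 15 passed the test, and their median difference was -0.09. Like the other lists, this one was chosen with earlier results of these data known. The genes of smallest p were AOS, the allene oxide synthase that directly uses the 13-lipoxygenase product (-0.97, SE 0.22, limma adjusted p = 0.22), and OPR3, the reductase of the jasmonate precursor (-0.83, SE 0.20, limma adjusted p = 0.25). AOS measured 8.38 ± 0.32 in mcu123 and 9.35 ± 0.47 in Col-0, and OPR3 measured 5.38 ± 0.25 in mcu123 and 6.21 ± 0.43 in Col-0 (SD, n = 5 each). For these 2 of the 15 genes every mcu123 array lay below every Col-0 array, as for 1.02% of all rows. The cyclase gene AOC3 followed with -0.66. AOC2, with a difference of -0.46, measured 1.37 in mcu123 and 1.83 in Col-0, a level that, as for LOX2, could not be separated from background. Among the genes of the later, peroxisomal steps, ACX1 (-0.09), ACX5 (-0.08), MFP2 (-0.0012), AIM1 (0.01) and KAT2 (-0.04) lay close to 0. OPCL1 of the same list did not, with a difference of -0.70 (limma adjusted p = 0.68). Its genotypes overlapped, since Col-0 replicate 5 was the lowest of all arrays at 7.20.

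Upstream of the lipoxygenases, the 10 desaturase and lipase genes that supply linolenic acid had a median difference of 0.03, with 5 lower and 5 higher means and none past the test. The lipase genes PLIP1 and PLIP2 had the smallest p, with differences of 0.57 and -0.42, followed by the desaturase genes FAD2 (0.18) and FAD3 (0.21). Among 5 other oxylipin genes none passed. Of these, the hydroperoxide lyase gene HPL1 had a difference of 0.32. The dioxygenase genes DOX2 and DOX1, which oxygenate fatty acids at another carbon, had 0.37 and -0.12, and the reductase gene OPR2 had -0.15. HPL1, DOX2 and OPR2 had means below the array median in both genotypes.

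**Figure D3:**
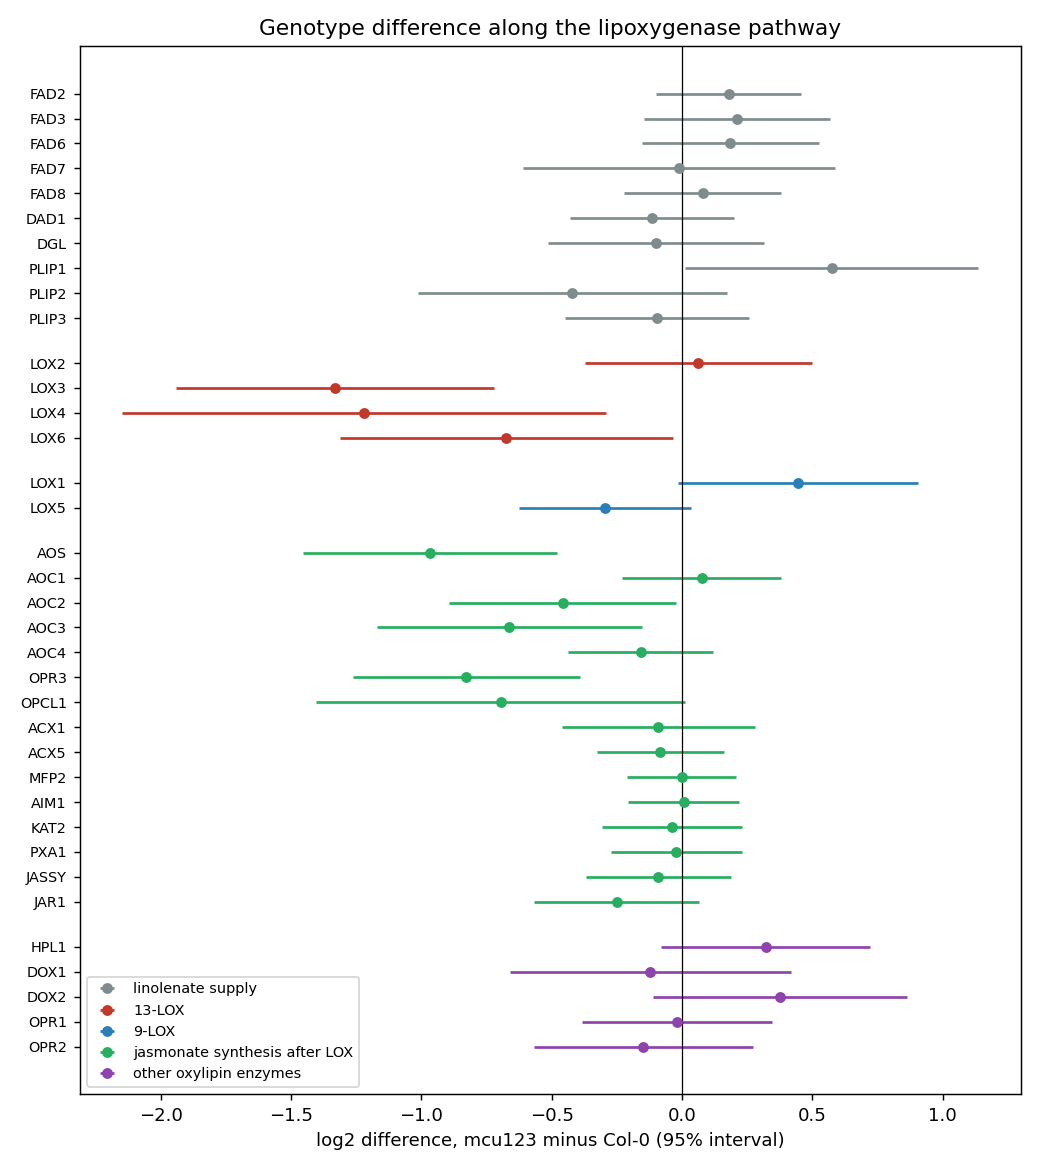
Log2 difference between mcu123 and Col-0 (x axis, mcu123 minus Col-0, with 95% limma interval, 5 arrays each) for genes of linolenic acid supply, the lipoxygenases, jasmonate synthesis after them, and other oxylipin enzymes. LOX3 (-1.33), LOX4 (-1.22), AOS (-0.97) and OPR3 (-0.83) lie farthest to the left, and no gene drawn passes the test over all rows.

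The rows most like each member were found by correlating values with genotype means subtracted over 10 arrays, among rows brighter than the median row. These coefficients are the top of a search over many rows and describe these arrays. For LOX4 they were MYBR1, a MYB transcription factor gene (r = 0.98), AT2G41640 (0.97) and NUDT4, a nudix hydrolase gene (0.97). For LOX3 they were AT1G07220 (r = 0.93), AT1G26218 (0.92) and AT1G78280 (0.92). Although LOX3 and LOX4 varied together, no row was among the 3 likest of both.

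For LOX6 the likest rows were AT5G41800 (r = 0.96), the aldehyde dehydrogenase gene ALDH2B7 (0.96) and AT3G02750 (0.96), and without the 2 arrays farthest from its median these were 0.72, 0.66 and 0.51. For LOX1 they were PBP1, a lectin gene (r = 0.98), AT2G37700 (0.97) and AT5G64572 (0.96). For LOX5 they were QUA1, a pectin synthesis gene (r = 0.90), AT4G32208 (0.89) and AT4G28650 (0.89). Without the 2 arrays farthest from the LOX5 median these were 0.66, 0.70 and 0.80. For LOX2 they were the mitochondrial locus ATMG00550 (r = 0.98), AT1G52825 (0.92) and PSBW, a photosystem II gene (0.88). Without the 2 arrays farthest from the LOX2 median these were 0.95, 0.84 and 0.76. The LOX2 values themselves could not be separated from background. None of these 18 rows passed the test between genotypes.

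The genes next to each lipoxygenase in the RefSeq order were compared as well. The neighbours of LOX3, AT1G17410 and AT1G17430, had differences of -0.03 and -0.09. Those of LOX4, AT1G72510 and AT1G72530, had -0.74 and -0.22, and those of LOX6, URE and AT1G67570, had 0.08 and 0.01. None of the 12 neighbours of the 6 genes passed the test, with limma adjusted p-values from 0.47 to 0.997.

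Leaving out each array in turn kept the difference of LOX3 between -1.51 and -1.16. For LOX4 it lay between -1.62 and -0.895, for LOX6 between -0.78 and -0.35, for LOX5 between -0.37 and -0.19 and for LOX1 between 0.27 and 0.61. LOX2 took either sign, from -0.11 to 0.18. None of the 6 passed the test in any of these fits.

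**Figure D4:**
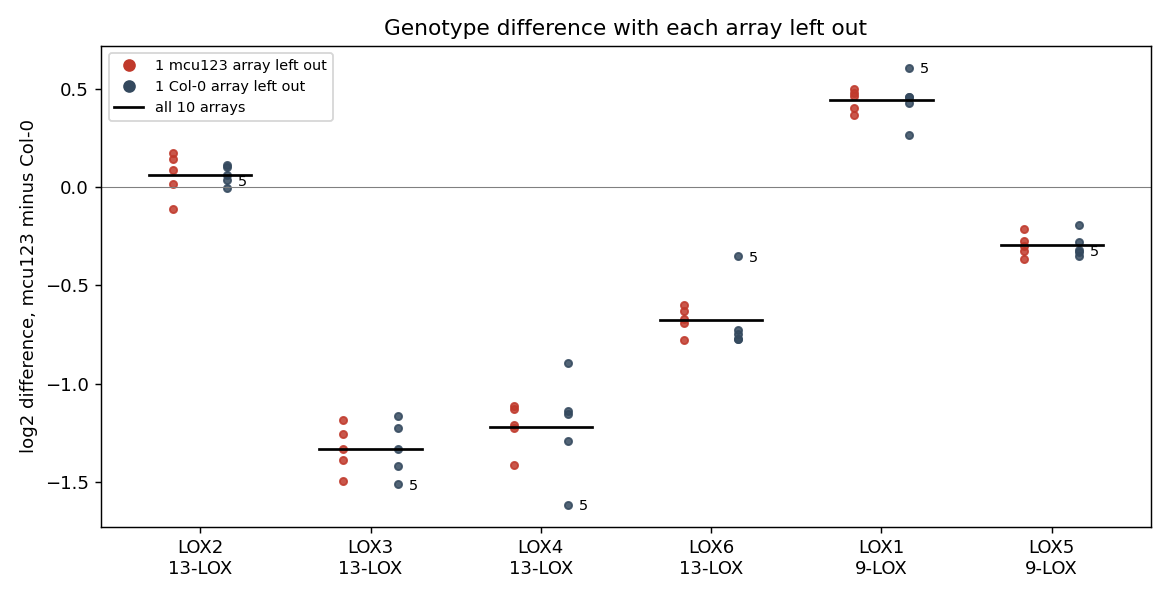
Log2 difference (y axis, mcu123 minus Col-0) of each lipoxygenase with each array left out in turn. Red points leave out an mcu123 array, dark blue points a Col-0 array, and the black line is the value with all 10 arrays. Leaving out Col-0 replicate 5, marked 5, gives -1.62 for LOX4, -0.35 for LOX6 and 0.61 for LOX1.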

How the data were processed

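The authors deposited log2 intensities, made with RMA per the submitters' processing notes. The sorted values of the 10 columns were identical, so a shift shared by all genes cannot be seen. The sources used here do not give the array model, the grouping of probes, the build or scan batches. Locus codes were matched to the RefSeq table of assembly TAIR10.1 for names and gene order only, and 27241 of 27826 rows had an entry.

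All 27826 rows were fitted with limma 3.58.1 in R 4.3.3 (lmFit and eBayes, genotype as the single term, two-sided, Benjamini-Hochberg adjustment over all rows). The test was checked on simulated data in 5 runs with 200 changed rows each. The lipoxygenases and the 11 other gene lists were chosen with earlier results of these data known. The text names all members, the 4 genes of smallest p in each pathway list where none passed, the targeted genes, and the 3 rows most like each member. Alternatives were dropping the dimmest 30% of rows, cyclic loess, each array left out in turn, the replicate number as a block, array weights, and a robust prior with a trend. The number of arrays limits the precision.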

Additional observations from a re-analysis of the deposited data

Results flagged for a closer look

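Arrays far from the rest of their group were looked for in 36 sets of 5 arrays, covering the 6 members, the 2 class means and 10 list means. An array was picked out where its gap to the nearest other array exceeded 0.71 of the range of the set, which chance gives in about 1.8 of 36 sets. Of the 3 picked out, 1 was a member: LOX6 in Col-0 replicate 5, at 9.49 log2 units where the other Col-0 arrays had 7.79 to 7.99. The mean of the 15 jasmonate synthesis genes was 7.18 in Col-0 replicate 3, where the other Col-0 arrays had 6.79 to 6.89. The mean of the 9 photosynthetic shoot markers was 3.62 in mcu123 replicate 5, where the other mcu123 arrays had 2.56 to 2.85.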

How the results depend on the processing

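No lipoxygenase passed the limma test under any of the 15 alternatives, and LOX1, LOX3, LOX4, LOX5 and LOX6 kept their direction in all of them. The adjusted p ran from 0.082 to 0.44 for LOX3, 0.11 to 0.82 for LOX4, 0.37 to 0.89 for LOX6, 0.37 to 0.91 for LOX1 and 0.39 to 0.91 for LOX5. LOX2 changed sign without mcu123 replicate 5 or Col-0 replicate 3, within a range of -0.11 to 0.18 with 1 array left out, and it was not tested after the dimmest 30% of rows were dropped, which removed it. The number of lipoxygenases lower at an unadjusted p under 0.05 was 3 with all arrays and 2 to 4 under the alternatives. The 13-lipoxygenase mean difference stayed between -0.87 and -0.70 with 1 array left out, and the 9-lipoxygenase mean difference ran from -0.03 to 0.14, and was -0.0025 with array weights. None of the jasmonate synthesis or linolenic acid supply genes passed in any alternative. The number of genes changed in the whole table was 12, and it was 7 without the dimmest rows, 35 with a trended and robust prior, 30 with array weights and 5 to 22 with 1 array left out. The cause was not tested. With the replicate number as a block the count was 8 and LOX3 stayed at -1.33 (limma adjusted p = 0.33). The numbers did not pair the arrays, since the deviations of same-numbered arrays correlated at -0.21 to 0.09.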
